A study of Mus musculus with 8 samples.

Results

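The genes described here are the interleukin-2 (IL-2) axis of T cells: the cytokine Il2, its receptor subunits Il2rb and Il2rg, the transcription factors Stat5a and Stat5b, the feedback inhibitors Cish, Socs1, Socs2 and Socs3, and the kinase gene Pim1. They were chosen by name, 10 genes in all, and each was read from its brightest transcript cluster (the set of probes that stands for a transcript on the array) among those annotated to a single gene symbol. Of the 10 genes 9 were measured, out of 22180 genes of the whole array, and all 9 were among the 13508 genes bright enough to be tested. Il2rg had no such cluster and was not analysed here. The arrays came from CD4+CD25- T cells that had been sorted by flow cytometry from spleens of C57BL/6 mice aged 6 to 8 weeks and then stimulated on plates coated with antibodies to CD3 and CD28. The 4 groups were CCR2-/- CD45RBlow, CCR2-/- CD45RBhigh, wild-type CD45RBlow and wild-type CD45RBhigh cells, with 2 arrays each. CCR2-/- mice lack the chemokine receptor CCR2 throughout the animal. CD45RB is a splice form of the phosphatase CD45, abundant on naive T cells and reduced after antigen experience. All groups shared the stimulation, which lasted 48 h by the sample protocols and 2 h by the series design, so its duration is not settled, and no unstimulated cells were among these arrays. No label says that replicates 1 and 2 came from separate animals or how many mice were pooled, so p-values reflect only how these samples varied.

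IL-2 is made by activated T cells and acts back on them through a receptor of an alpha chain (Il2ra, CD25), a beta chain (Il2rb) and the common gamma chain (Il2rg), which signals through the kinases JAK1 and JAK3. These phosphorylate STAT5A and STAT5B, which then bind DNA as dimers at TTCNNNGAA sites and switch on genes such as Cish, Socs2, Pim1 and Foxp3. CIS and the SOCS proteins in turn dampen signalling from cytokine receptors, which makes a negative feedback loop, and SOCS1 also restrains interferon signalling.

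The data were log2 expression values, in which a difference of 1 is a 2-fold difference. Array medians lay between 4.92 and 5.05, and replicate arrays correlated at r = 0.984 to 0.994 over all clusters. The measured T cell markers, 6 of 8 listed, had a mean level of 11.2 to 11.4 on every array, Cd3e was at 12.3 to 12.8 and Cd4 at 11.5 to 11.7. Of the CD8 T cell markers, Cd8a was at 4.39 to 4.91, below or near the medians, and Cd8b1 at 6.97 to 8.78, well above them. Markers of NK cells averaged 4.66 to 4.92, those of dendritic cells 4.67 to 4.98 and those of macrophages and monocytes 4.97 to 5.45. These averages hold brighter genes, namely Naaa of the dendritic cell list (group means of 6.69 to 7.70) and Ctss (8.17 to 9.97) and Cd68 (6.88 to 8.55) of the macrophage and monocyte list. Ccr2 was at 4.62 to 5.15 in CCR2-/- cells and at 4.26 to 4.61 in wild-type cells. Whether the probes fall in the deleted part of the gene is not known, so this does not check the genotypes. The replicate numbers stood apart: Xist, the RNA of the inactive X chromosome, ranged between 4.45 and 5.02 in replicate 1 and between 11.7 and 12.1 in replicate 2 of the 4 groups. The Y-linked genes were present in both and lower in replicate 2 of every group. Uty was at 9.40 to 9.59 in replicate 1 and 8.19 to 8.59 in replicate 2, and Eif2s3y and Kdm5d had 8.83 to 9.97 in replicate 1 and 7.58 to 9.11 in replicate 2. The replicate numbers thus differed in their mix of male and female cells, and the spread within groups and the pairing below include that difference. Differences of replicate 2 from replicate 1 correlated between groups at r = 0.109 to 0.531 across genes, which met the limit for treating same-numbered arrays as pairs. The fit with the number as a block, called the paired fit here, is given where it changes a call.

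Promoter windows, from 250 bases before to 50 bases after a gene's start, were taken from RefSeq (GRCm38.p6) for 8 of the 10 genes, with 11 windows in all. The 8 did not include Il2rb and Socs2. They were searched for TTCNNNGAA, the core motif that STAT5 and other STAT factors can bind. The motif is its own reverse complement in form, so a search of 1 strand covers both, and no matches overlapped. It was found in 2 of the 11 windows and in 2726 of 32851 windows of all genes (8.30%). Cish held 2 matches, at bases 1 to 9 and 12 to 20, counted from its start as base 1. Among all windows 150 (0.457%) held 2 or more. Socs3 held 1 match, at bases -154 to -146 relative to its start. The windows of these feedback genes are shown with those of Socs1 and Pim1, which held no match. The levels of Socs1 and Pim1 differed between the subsets in the paired fit below. A further Pim1 window, chr17:29492835-29493134, also held no match and is not shown. Each window shown is written 5′ to 3′ on the gene's own strand, with the motif in capitals. A match shows only that these letters are present, not that a factor binds there.
Cish, chr9:107296409-107296708, plus strand: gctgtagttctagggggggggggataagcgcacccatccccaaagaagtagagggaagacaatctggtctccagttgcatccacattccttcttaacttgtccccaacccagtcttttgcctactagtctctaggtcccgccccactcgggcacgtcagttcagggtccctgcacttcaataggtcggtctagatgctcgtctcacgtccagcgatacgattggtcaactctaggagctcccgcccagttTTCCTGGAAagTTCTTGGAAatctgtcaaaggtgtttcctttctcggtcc
Socs3, chr11:117969317-117969616, minus strand: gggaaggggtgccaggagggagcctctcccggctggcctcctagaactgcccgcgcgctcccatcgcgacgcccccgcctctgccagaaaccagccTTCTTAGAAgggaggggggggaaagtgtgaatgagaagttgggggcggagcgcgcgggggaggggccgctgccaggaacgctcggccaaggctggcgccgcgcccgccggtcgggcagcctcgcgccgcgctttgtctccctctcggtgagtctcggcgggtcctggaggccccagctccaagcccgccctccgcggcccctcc
Socs1, chr16:10785487-10785786, minus strand: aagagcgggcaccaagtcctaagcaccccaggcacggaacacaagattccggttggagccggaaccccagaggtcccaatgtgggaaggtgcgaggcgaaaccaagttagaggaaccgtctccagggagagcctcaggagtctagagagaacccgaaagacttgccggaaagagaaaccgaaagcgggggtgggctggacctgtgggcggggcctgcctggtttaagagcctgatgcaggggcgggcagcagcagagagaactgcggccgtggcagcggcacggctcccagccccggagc
Pim1, chr17:29490535-29490834, plus strand: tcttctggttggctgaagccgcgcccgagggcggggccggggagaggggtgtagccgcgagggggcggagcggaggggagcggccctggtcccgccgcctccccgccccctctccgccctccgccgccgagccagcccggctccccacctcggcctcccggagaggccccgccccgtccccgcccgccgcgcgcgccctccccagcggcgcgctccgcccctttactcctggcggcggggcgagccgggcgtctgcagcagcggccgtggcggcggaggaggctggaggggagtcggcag

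The comparison of CD45RBlow with CD45RBhigh cells asked how the sorted subsets differed, and among the IL-2 axis genes it set apart the feedback inhibitor Socs2. Socs2 was 2.59-fold higher in CD45RBlow cells averaged over the genotypes. In the paired fit Socs1 also rose, 1.56-fold, and Pim1 fell, being 1.28-fold higher in CD45RBhigh cells. No call was made for Il2, Il2rb, Stat5a, Stat5b, Cish or Socs3. Of the 9 genes tested 1 passed, at a Benjamini-Hochberg adjusted p under 0.05 in limma, which called 3.03% of all 13508 genes (1.10% higher and 1.93% lower). In the paired fit 3 of 9 passed, against 5.61% of all genes (1.95% higher and 3.66% lower). The median log2 difference of the 9 genes was 0.067 and that of all tested genes was -0.0078.

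**Figure D1:**
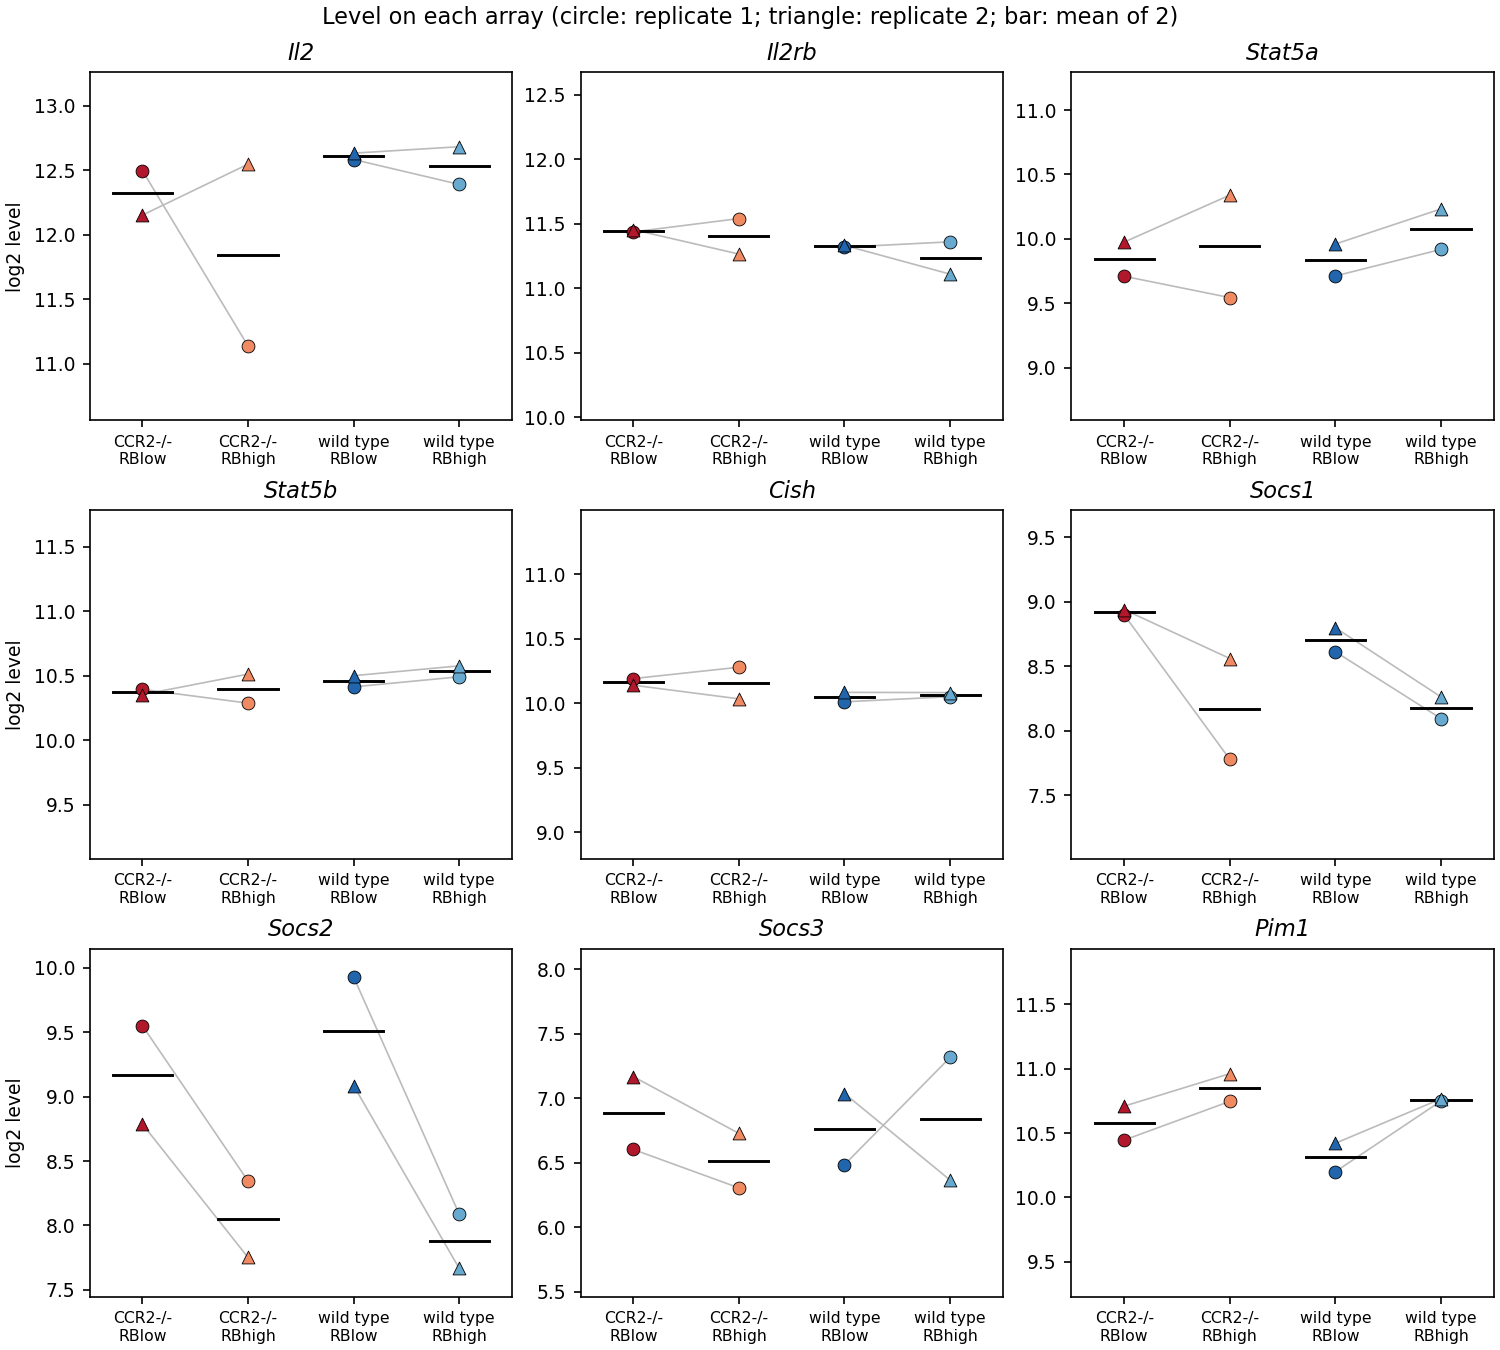
Log2 level of each of the 9 measured genes on each of the 8 arrays, with a panel for each gene, a column for each group (CCR2-/- before wild type, CD45RBlow before CD45RBhigh), circles for replicate 1, triangles for replicate 2, a bar for their mean and grey lines between same-numbered arrays of a genotype. The Socs2 values of CD45RBlow cells, 8.79 to 9.93, all lie above those of CD45RBhigh cells, 7.67 to 8.34, while the values of Il2rb, Stat5b and Cish overlap.

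Il2, which encodes the ligand, was at log2 12.50 and 12.15 in CCR2-/- CD45RBlow cells, 11.14 and 12.55 in CCR2-/- CD45RBhigh cells, 12.58 and 12.63 in wild-type CD45RBlow cells, and 12.39 and 12.68 in wild-type CD45RBhigh cells (replicates 1 and 2). It was thus among the brightest genes on every array, at percentiles 97.2 to 99.7 of all clusters, and the groups overlapped. The lowest value, in CCR2-/- CD45RBhigh replicate 1, lay 1.41 below its replicate 2. By mean level, wild-type CD45RBlow (12.61 ± 0.035, SD, n = 2 here and below) stood above wild-type CD45RBhigh (12.54 ± 0.21), CCR2-/- CD45RBlow (12.32 ± 0.24) and CCR2-/- CD45RBhigh cells (11.84 ± 0.997). Each group differed from the next in this order by less than the larger of their SDs. The difference between CD45RBlow and CD45RBhigh cells was 0.28 (95% interval -0.38 to 0.94, limma adjusted p = 0.690). It rested on the CCR2-/- CD45RBhigh arrays. Without replicate 1 of that group it was -0.076, and without replicate 2 it was 0.63 (adjusted p = 0.0456), the single setting tried in which this averaged difference passed.

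Il2rb, the signalling beta chain shared by the IL-2 and IL-15 receptors, was at 11.44 and 11.45 in CCR2-/- CD45RBlow cells, 11.54 and 11.26 in CCR2-/- CD45RBhigh cells, 11.32 and 11.33 in wild-type CD45RBlow cells, and 11.36 and 11.11 in wild-type CD45RBhigh cells. The whole range over the 8 arrays was 0.43, and the subsets overlapped. The difference between CD45RBlow and CD45RBhigh cells was 0.067 (interval -0.16 to 0.29, adjusted p = 0.799). Il2ra, the alpha chain by which the cells had been sorted as CD25-, was at 12.25 to 12.50 on all 8 arrays after stimulation. It differed between CD45RBlow and CD45RBhigh cells by 0.10 (interval -0.092 to 0.30, adjusted p = 0.591).

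Neither signal transducer passed. Stat5a, which with Stat5b carries the IL-2 signal to the nucleus, was at 9.71 and 9.98 in CCR2-/- CD45RBlow cells, 9.55 and 10.34 in CCR2-/- CD45RBhigh cells, 9.71 and 9.96 in wild-type CD45RBlow cells, and 9.92 and 10.23 in wild-type CD45RBhigh cells. In all 4 groups replicate 2 was the higher array, by 0.25 to 0.79, and the subsets overlapped. The difference between CD45RBlow and CD45RBhigh cells was -0.17 (interval -0.60 to 0.26, adjusted p = 0.717). Stat5b ranged less, from 10.29 to 10.58 over the 8 arrays, and its difference was -0.052 (interval -0.25 to 0.14, adjusted p = 0.822). Stat5a and Stat5b encode closely related proteins, and signal from 1 gene on the other's probes was not tested here.

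The feedback inhibitors did not move as a group. Cish, which encodes CIS, an inhibitor that acts at the IL-2 receptor, held the 2 motifs shown above and hardly varied. It was at 10.19 and 10.14 in CCR2-/- CD45RBlow cells, 10.28 and 10.03 in CCR2-/- CD45RBhigh cells, 10.01 and 10.08 in wild-type CD45RBlow cells, and 10.05 and 10.08 in wild-type CD45RBhigh cells. Its range of 0.27 was the narrowest of the 9 genes, and the difference between CD45RBlow and CD45RBhigh cells was -0.0051 (interval -0.20 to 0.19, adjusted p = 0.987). A dimmer Cish cluster, at 5.87 to 7.27, differed by -0.034 (adjusted p = 0.978 with every cluster tested by itself).

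Socs2, which encodes an inhibitor best known for restraining growth hormone signalling and is a STAT5 target, was the gene of the axis that separated the subsets most. It was at 9.55 and 8.79 in CCR2-/- CD45RBlow cells, 8.34 and 7.75 in CCR2-/- CD45RBhigh cells, 9.93 and 9.09 in wild-type CD45RBlow cells, and 8.09 and 7.67 in wild-type CD45RBhigh cells. All 4 CD45RBlow arrays lay above all 4 CD45RBhigh arrays. The same-numbered arrays differed by 1.20 and 1.03 in CCR2-/- cells and by 1.84 and 1.42 in wild-type cells. Averaged over the genotypes the difference was 1.37 (interval 0.77 to 1.98), or 2.59-fold (interval 1.71 to 3.94), with an adjusted p of 0.0391 in limma and of 0.0016 in the paired fit. In every group replicate 2 was the lower array, by 0.42 to 0.84, a pattern that 9.19% of all tested genes shared. By mean level the order was wild-type CD45RBlow (9.51 ± 0.60), CCR2-/- CD45RBlow (9.17 ± 0.54), CCR2-/- CD45RBhigh (8.05 ± 0.42) and wild-type CD45RBhigh cells (7.88 ± 0.30). Both CD45RBlow groups differed from each other by less than their SDs, as did both CD45RBhigh groups.

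The Socs2 difference had the same sign in both genotypes. Within CCR2-/- cells it was 1.12 (interval 0.27 to 1.97, adjusted p = 0.265, and 0.0171 in the paired fit), and within wild-type cells 1.63 (interval 0.77 to 2.48, adjusted p = 0.213, and 0.0089 in the paired fit). None of the 9 genes passed within CCR2-/- cells, against 0.333% of all genes, or within wild-type cells, against 0.0888%. At an unadjusted p under 0.05 in limma there were 2 of 9 in CCR2-/- cells (Socs1 and Socs2, against 12.3% of all genes) and 2 of 9 in wild-type cells (Pim1 and Socs2, against 9.22%). In the paired fit Socs2 was the single gene of the 9 that passed in each, against 1.45% and 0.770% of all genes. The interaction, the difference in CCR2-/- cells minus that in wild-type cells, was -0.51 (interval -1.72 to 0.70, adjusted p = 0.9998). In the paired fit its interval was -0.95 to -0.070, with the same adjusted p, so that a different size of the subset difference in the 2 genotypes was not established for Socs2. Limma called the interaction for 0 of 13508 genes (0.00%), with 0 of the 9 genes and 1.18% of all genes at an unadjusted p under 0.05.

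The Socs2 call was close to the threshold without pairing. It remained without CCR2-/- CD45RBhigh replicate 1 (difference 1.52, adjusted p = 0.0374) and was lost without any other array. Leaving out a CD45RBlow array gave 1.18 (adjusted p = 0.131) for replicate 1 and 1.56 (adjusted p = 0.0501) for replicate 2 of CCR2-/- cells, and 1.16 (adjusted p = 0.160) for replicate 1 and 1.58 (adjusted p = 0.0559) for replicate 2 of wild-type cells. Leaving out a CD45RBhigh array gave 1.23 (adjusted p = 0.0604) for replicate 2 of CCR2-/- cells, and 1.48 (adjusted p = 0.0907) for replicate 1 and 1.27 (adjusted p = 0.125) for replicate 2 of wild-type cells. A dimmer Socs2 cluster near the array medians, at 4.81 to 5.42 in CD45RBlow cells and 4.56 to 4.83 in CD45RBhigh cells, differed by 0.36 (interval 0.11 to 0.61) and did not pass (adjusted p = 0.131).

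**Figure D2:**
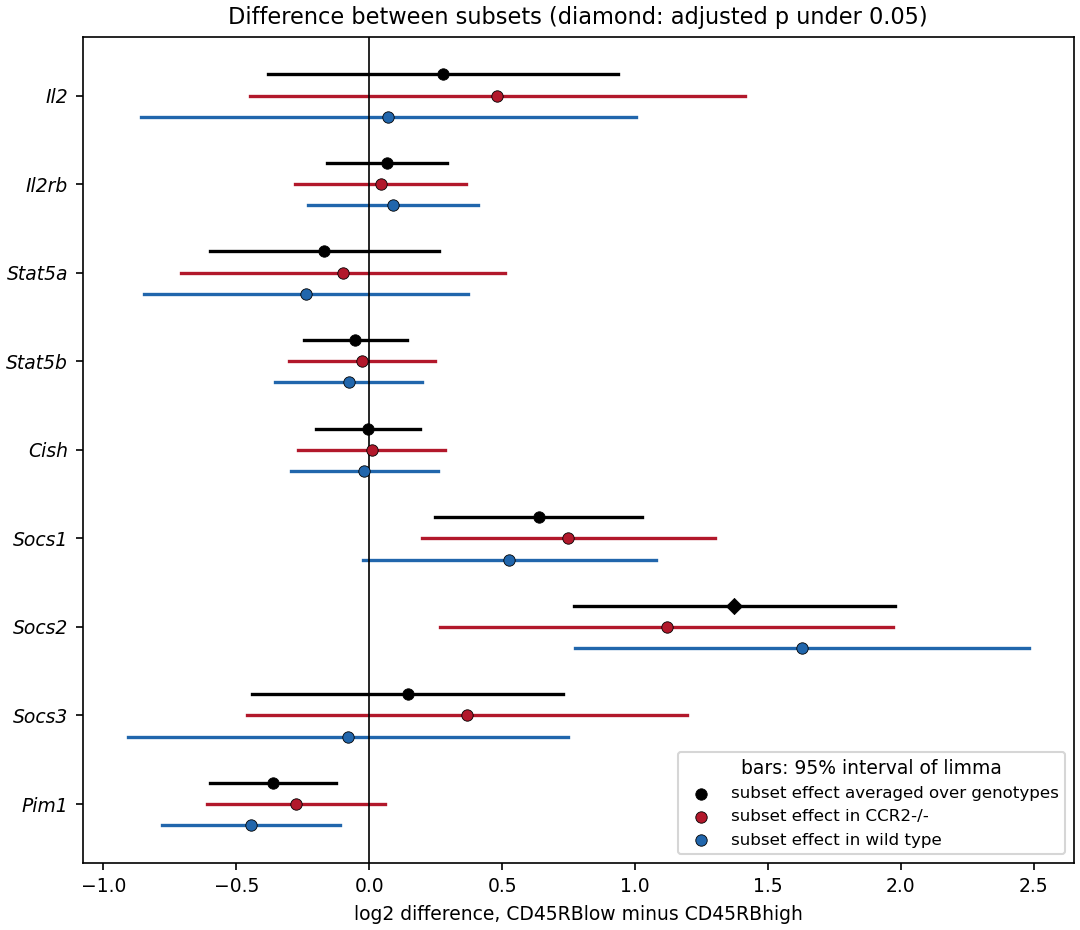
Log2 difference of CD45RBlow minus CD45RBhigh cells for each of the 9 genes, averaged over the genotypes and within each genotype, with the 95% interval of limma as bars. The averaged interval lies wholly above 0 for Socs2 (0.77 to 1.98) and Socs1 (0.25 to 1.03) and wholly below 0 for Pim1 (-0.60 to -0.12).

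Markers of regulatory T cells were, on average, higher in CD45RBlow cells, as Socs2 was. All 11 listed were measured and tested, and their mean level was 8.13 to 8.85 on the CD45RBlow arrays and 7.23 to 7.56 on the CD45RBhigh arrays. Of the 11, 5 passed and rose (Foxp3, Ikzf2, Itgb8, Gpr83 and Ctla4), where 1.10% of all tested genes were called higher. The others did not pass, among them Tnfrsf18 (-0.16, adjusted p = 0.291) and Il2ra (0.10, adjusted p = 0.591). The median log2 difference of the list was 1.10. Foxp3 was at 9.11 and 7.87 in CCR2-/- CD45RBlow cells, 5.88 and 5.31 in CCR2-/- CD45RBhigh cells, 9.14 and 8.44 in wild-type CD45RBlow cells, and 5.37 and 5.79 in wild-type CD45RBhigh cells. Their part in the Socs2 result was not tested. In bulk samples such as these, a change in the number of cells of a type and a change in RNA per cell cannot be told apart.

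Socs1, an inhibitor that binds JAK kinases directly and is also induced by interferons, was at 8.90 and 8.94 in CCR2-/- CD45RBlow cells, 7.78 and 8.56 in CCR2-/- CD45RBhigh cells, 8.61 and 8.80 in wild-type CD45RBlow cells, and 8.09 and 8.26 in wild-type CD45RBhigh cells. Again all CD45RBlow arrays lay above all CD45RBhigh arrays, though the gap between 8.61 and 8.56 was narrow. The same-numbered arrays differed by 1.12 and 0.38 in CCR2-/- cells and by 0.52 and 0.54 in wild-type cells. The averaged difference was 0.64 (interval 0.25 to 1.03), or 1.56-fold, with an adjusted p of 0.0952 and of 0.0402 in the paired fit. Without CCR2-/- CD45RBhigh replicate 2 it was 0.83 and passed without pairing (adjusted p = 0.0118). By mean level CCR2-/- CD45RBlow (8.92 ± 0.029) stood above wild-type CD45RBlow (8.70 ± 0.13), wild-type CD45RBhigh (8.18 ± 0.12) and CCR2-/- CD45RBhigh cells (8.17 ± 0.55). The CD45RBhigh groups did not differ beyond their spread, and the CD45RBlow groups differed by more than their SDs but did not pass the test (0.21, interval -0.34 to 0.76).

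Interferon-response genes had lower levels on most CD45RBlow arrays. Of 15 listed, 13 were measured and tested, and their mean level was 5.78 to 6.18 on the CD45RBlow arrays and 6.13 to 8.22 on the CD45RBhigh arrays. Of these 13, Oas2 fell without pairing and 5 fell in the paired fit, beside 1.93% and 3.66% of all tested genes. In CCR2-/- CD45RBhigh cells, where the Socs1 arrays lay farthest apart, the mean of the 13 genes spanned 6.13 to 8.22. Their part in the Socs1 result was not tested.

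Socs3, an inhibitor of gp130 cytokine signalling, was dimmer and scattered. It was at 6.60 and 7.17 in CCR2-/- CD45RBlow cells, 6.30 and 6.73 in CCR2-/- CD45RBhigh cells, 6.48 and 7.04 in wild-type CD45RBlow cells, and 7.31 and 6.36 in wild-type CD45RBhigh cells. The groups overlapped, and the difference between CD45RBlow and CD45RBhigh cells was 0.14 (interval -0.44 to 0.73, adjusted p = 0.838).

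Pim1, a serine/threonine kinase gene that STAT5 induces and that promotes survival and growth, ran the other way from Socs1 and Socs2. It was at 10.45 and 10.71 in CCR2-/- CD45RBlow cells, 10.75 and 10.96 in CCR2-/- CD45RBhigh cells, 10.20 and 10.42 in wild-type CD45RBlow cells, and 10.75 and 10.77 in wild-type CD45RBhigh cells. All 4 CD45RBlow arrays lay below all 4 CD45RBhigh arrays, with a gap of 10.71 to 10.75. The same-numbered arrays differed by -0.30 and -0.25 in CCR2-/- cells and by -0.55 and -0.34 in wild-type cells. The averaged difference was -0.36 (interval -0.60 to -0.12), with an adjusted p of 0.113 and of 0.0464 in the paired fit. With the mean of both Pim1 clusters in place of the brightest it was -0.16 (adjusted p = 0.359), the dimmer cluster lying at 4.37 to 4.54, below the array medians. By mean level the order was CCR2-/- CD45RBhigh (10.85 ± 0.15), wild-type CD45RBhigh (10.76 ± 0.012), CCR2-/- CD45RBlow (10.58 ± 0.19) and wild-type CD45RBlow cells (10.31 ± 0.16), and only the last pair of neighbours differed by more than both SDs, without passing the test (0.27, interval -0.068 to 0.60). B cell markers, 7 of 9 measured, averaged 5.00 to 5.12 on the CD45RBlow arrays and 5.26 to 6.10 on the CD45RBhigh arrays, and CD8 T cell markers, 4 of 4 measured, averaged 5.25 to 5.35 on the CD45RBlow arrays and 5.44 to 5.86 on the CD45RBhigh arrays. With pairing Cd8b1 fell by 0.92 (adjusted p = 0.0467, and 0.0776 without pairing), while Gzmk, at 4.85 to 5.42, rose by 0.34 (adjusted p = 0.0445, and 0.0582 without pairing). Of the 7 measured B cell markers 5 were bright enough to be tested. Ighm alone passed, and it fell. Ms4a1, which defines B cells, was also lower, at 4.13 to 4.22 on the CD45RBlow arrays and 4.34 to 5.18 on the CD45RBhigh arrays. Group means of Cd79a were 3.82 and 3.88 in CD45RBlow cells and 5.05 and 4.45 in CD45RBhigh cells (CCR2-/- and wild type). Those of Cd79b were 5.05 and 5.10, and 6.03 and 5.74. In CCR2-/- CD45RBhigh cells the SD was 1.15 for each. Cd22, Blk and Pax5 hardly differed in wild-type cells. Their group means in CD45RBlow and CD45RBhigh cells there were 4.26 and 4.29 for Cd22, 4.17 and 4.25 for Blk, and 4.26 and 4.27 for Pax5. Ctss, which encodes a protease of antigen-presenting cells, fell by 1.23 (adjusted p = 0.0096) and Naaa by 0.73 (adjusted p = 0.0286), and Cd68 fell by 0.53 in the paired fit (adjusted p = 0.0244, and 0.292 without pairing). Only 2 of the 8 measured macrophage and monocyte markers (Ctss and Cd68) and 2 of the 6 measured dendritic cell markers were bright enough to be tested. By group mean, of the dim macrophage and monocyte markers, Csf1r was slightly higher in CD45RBlow cells of both genotypes and Itgam slightly lower. Adgre1, Cd14, Fcgr1 and Lyz2 differed in sign between the genotypes. The part of these markers in the Pim1, Socs1 and Socs2 results was not tested.

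Across the 9 genes, 3 had CD45RBlow and CD45RBhigh arrays that did not overlap, Socs1 and Socs2 above and Pim1 below. Among all tested genes 14.3% did not overlap, 6.13% above and 8.13% below. Replicate 2 was the higher array in all 4 groups for Stat5a, Socs1 and Pim1, as it was for 16.8% of all tested genes.

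The comparison of CCR2-/- with wild-type cells asked whether the absence of CCR2 altered these genes, and no call was made for any of the 9. Limma called 0 of 13508 genes (0.00%) for the genotype averaged over the subsets, in CD45RBlow cells or in CD45RBhigh cells, and 0 in the paired fit. At an unadjusted p under 0.05 the counts over all genes were 521 (3.86%), 298 (2.21%) and 354 (2.62%) for these comparisons without pairing, and 0 of the 9 genes were among them. In the paired fit Pim1 and Socs2 reached an unadjusted p under 0.05 in CD45RBlow cells, as did 4.35% of all genes. The CCR2-/- and wild-type arrays overlapped for all 9 genes, against 1.67% of all tested genes without overlap.

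The averaged genotype differences ran from -0.49 for Il2 to 0.18 for Pim1, with a smallest adjusted p of 0.940. The Il2 difference had an interval of -1.15 to 0.17 and was -0.14 without CCR2-/- CD45RBhigh replicate 1, so most of it rested on that array. Pim1 was higher in CCR2-/- cells in 3 of 4 same-numbered pairs, by 0.25 and 0.29 in CD45RBlow cells and by -0.0024 and 0.20 in CD45RBhigh cells (average 0.18, interval -0.055 to 0.42). Il2rb was higher in CCR2-/- cells in 4 of 4 pairs, by 0.12 and 0.12 in CD45RBlow cells and by 0.18 and 0.16 in CD45RBhigh cells (average 0.14, interval -0.082 to 0.37). Il2 and Stat5b were lower in 4 of 4 pairs. Il2 differed by -0.087 and -0.48 in CD45RBlow cells and by -1.25 and -0.14 in CD45RBhigh cells. Stat5b differed by -0.019 and -0.15, and by -0.20 and -0.064. The share of all tested genes with 1 sign in every pair of the genotypes was not counted. Cish, which lies on chromosome 9 as Ccr2 does, differed by 0.10 (interval -0.092 to 0.30). Socs2 differed by -0.34 in CD45RBlow cells (interval -1.19 to 0.51) and by 0.17 in CD45RBhigh cells (interval -0.68 to 1.02). These intervals do not show that the genotypes were alike.

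**Figure D3:**
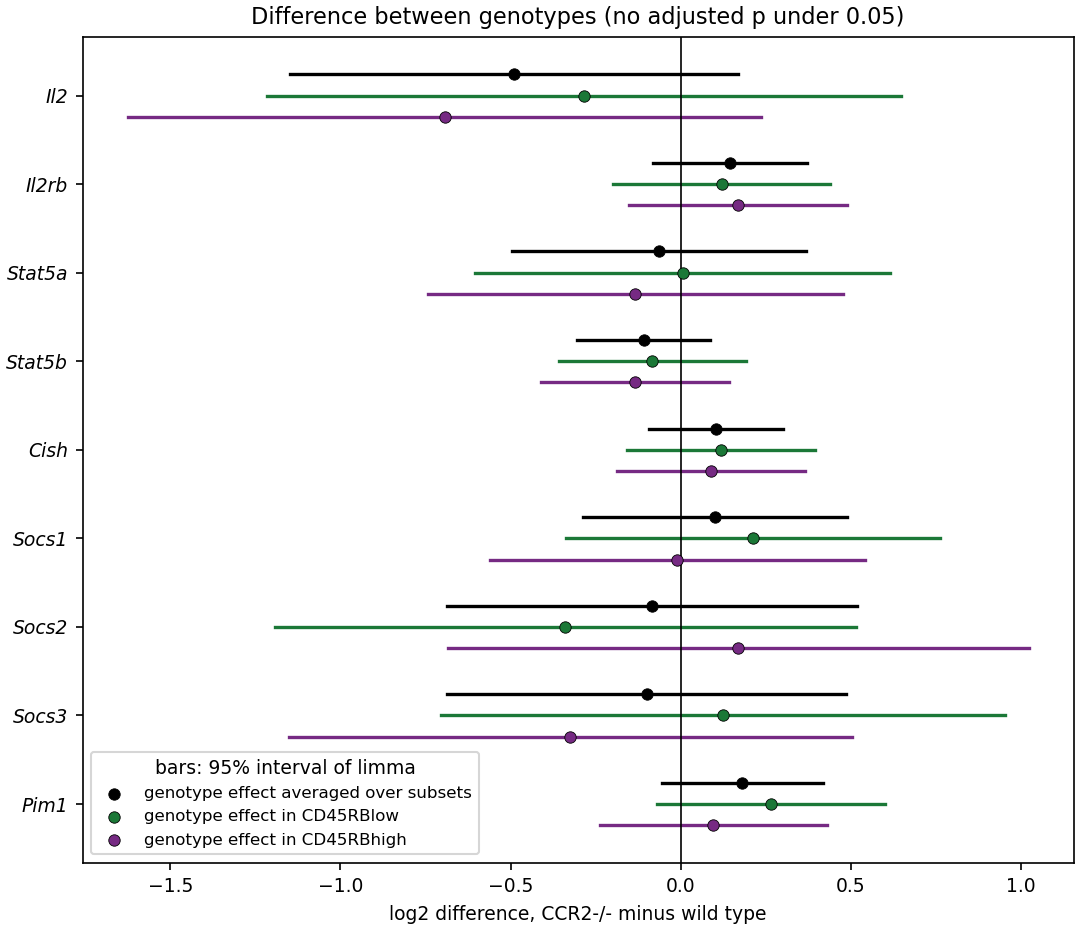
Log2 difference of CCR2-/- minus wild-type cells for each of the 9 genes, averaged over the subsets and within each subset, with the 95% interval of limma as bars. Every interval includes 0, and the widest belong to Il2, with an averaged interval of -1.15 to 0.17.

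Other genes of the pathway were taken from 6 lists, and their subset differences are averaged over the genotypes. Of all tested genes, 1.10% were called higher and 1.93% lower in CD45RBlow cells without pairing. Among 9 tested genes of a list of common gamma chain cytokines and receptors (of 12 listed), 3 rose in CD45RBlow cells and 1 fell. The 9 included Il13ra1 (0.12, limma adjusted p = 0.598), whose product is not part of a common gamma chain receptor. Il4, the Th2 cytokine, differed by 1.89 (adjusted p = 0.0044), Il9, a mast cell growth factor, by 2.98 (adjusted p = 0.0392), and Il21, a follicular helper cytokine, by 3.49 (adjusted p = 0.0426). Il9 varied widely within the CD45RBlow groups, with SDs of 1.62 in CCR2-/- and 1.26 in wild-type cells. Il21 was at 9.50 and 9.20 in CCR2-/- CD45RBlow cells, 4.89 and 5.53 in CCR2-/- CD45RBhigh cells, 9.94 and 9.58 in wild-type CD45RBlow cells, and 8.70 and 5.13 in wild-type CD45RBhigh cells, so that 1 CD45RBhigh array stood far above the other 3. Il15ra, the private chain of the IL-15 receptor that partners Il2rb, was at 8.06 and 8.42 in CCR2-/- CD45RBlow cells, 9.08 and 9.39 in CCR2-/- CD45RBhigh cells, 8.03 and 8.42 in wild-type CD45RBlow cells, and 8.91 and 9.30 in wild-type CD45RBhigh cells. The subsets did not overlap, and Il15ra fell by 0.94 (interval -1.29 to -0.58, adjusted p = 0.0275). The median of the list was 0.12, beside -0.0078 over all tested genes.

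Among 7 tested JAK kinases and other STAT factors (of 9 listed), Stat4, which transmits IL-12 signals, fell by 0.66 (adjusted p = 0.0286), and the median was -0.15. Stat2, which transmits type I interferon signals, differed by -1.43 (adjusted p = 0.0991) and passed in the paired fit (adjusted p = 0.0184). Of 6 other SOCS and PIM family genes and 16 other negative regulators of cytokine receptors, 0 passed in limma with or without pairing, with medians of -0.010 and 0.0055. Socs2 was thus the single tested SOCS family gene that passed without pairing.

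STAT5 target genes of T cells were split. Of 21 listed, all tested, 5 rose and 0 fell, beside 1.10% higher and 1.93% lower of all tested genes. The median was -0.016, with the other 16 between -0.39 (Osm) and 0.12 (Il7r). Those that rose were Id2, an inhibitor of E-protein transcription factors (1.56, adjusted p = 0.0059), Prdm1, encoding BLIMP-1 (1.67, adjusted p = 0.0059), Foxp3, which specifies regulatory T cells (3.05, adjusted p = 0.0063), Ikzf2, encoding Helios (2.49, adjusted p = 0.0092), and Ikzf3, encoding Aiolos (1.28, adjusted p = 0.0147). Foxp3 and Ikzf2 are also among the regulatory T cell markers above. Among 22 tested regulators of Il2 transcription (of 24 listed), Prdm1, Foxp3 and Ikzf2 counted again, and Egr2, a factor of T cell anergy, rose by 0.79 (adjusted p = 0.0339). The median of that list was 0.051, and Fos fell in the paired fit (-0.77, adjusted p = 0.0426, and 0.116 without pairing). Within CCR2-/- cells Il4 (2.42), Id2 (1.66) and Prdm1 (1.61) rose without pairing, and within wild-type cells no gene of the 6 lists passed. With pairing Il4, Id2, Prdm1, Foxp3 and Ikzf2 rose and Il15ra fell within each genotype. Il4 was 5.34-fold higher in CD45RBlow than in CD45RBhigh cells within CCR2-/- and 2.56-fold higher within wild type, and Ikzf2 differed by 2.09 within CCR2-/- and 2.88 within wild type on the log2 scale. Ikzf3 and Egr2 rose and Stat4 fell in the paired fit within CCR2-/- cells. The interaction passed for no gene of the lists, with or without pairing, so a difference between the genotypes was not shown for these genes.

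**Figure D4:**
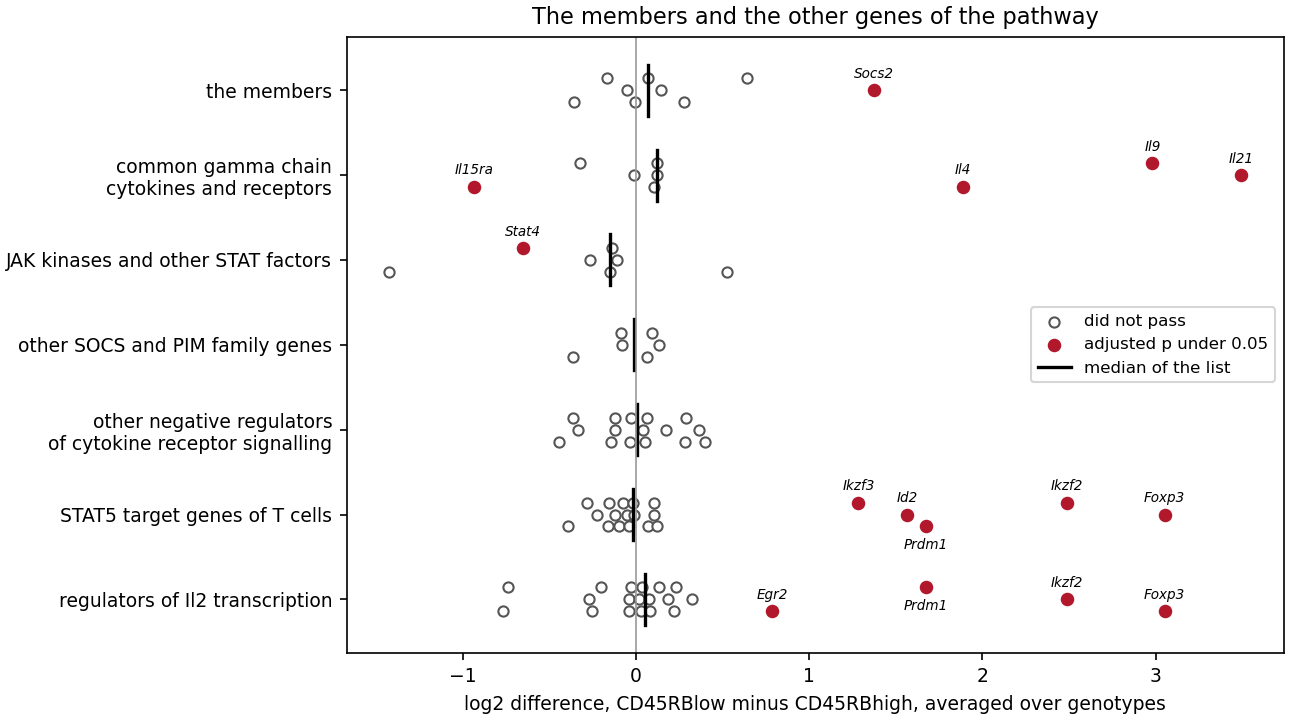
Log2 difference of CD45RBlow minus CD45RBhigh cells, averaged over the genotypes, for each tested gene of the IL-2 axis (top row, named the members) and of 6 lists of other pathway genes. Filled points passed at an adjusted p under 0.05 and are named, open points did not, and the vertical bars are list medians, which run from -0.15 to 0.12.

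For the 4 genes whose level ranged by more than 1 log2 unit, the tested genes with the most similar pattern over the 8 arrays were sought by Pearson correlation. This is a description over arrays that share their groups and replicate numbers. Symbols of gene models (such as Gm and Rik symbols) and of Mir and Snor genes were left out of the search. Socs2 was followed most closely by Ap1s2 (r = 0.997), Icos (r = 0.989) and Myo1e (r = 0.988). Icos, a costimulatory receptor of activated and regulatory T cells, differed between CD45RBlow and CD45RBhigh cells by 0.58 (adjusted p = 0.0792). Socs1 was followed by Glrx5 (r = 0.994), Tada1 (r = 0.980) and Dhrs4 (r = 0.977). Il2 was followed by Rwdd2b (r = 0.983), Serinc1 (r = 0.979) and Dohh (r = 0.960), and Socs3 by Ung (r = 0.962), Gpr65 (r = 0.952) and Tgm2 (r = 0.936).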

How the data were processed

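The deposited values were log2 expression values of 41034 transcript clusters on 8 Affymetrix arrays, which the authors produced using RMA and Partek (versions not given), per the submitters' processing notes. Because RMA equalises the arrays, a shift of most genes together would be removed. Labelling started from 200 ng of total RNA, per the labels' protocols. Precision is set by the number of arrays. The platform annotation named 25335 clusters, 23521 with a single symbol, 1814 with several (left out), and 15699 were unnamed here. Of the single-symbol clusters 23328 matched RefSeq (GRCm38.p6) by entrez identifier, which changed 0 symbols. The brightest cluster stood for each of 1082 genes with several. Tested genes were at or above the array's 40th percentile on at least 2 arrays.

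Group means were fitted to all 8 arrays with limma 3.58.1 in R 4.3.3 (4 residual and 3.36 prior degrees of freedom), two-sided, with Benjamini-Hochberg adjustment over 13508 genes and a threshold of 0.05, and the calculation was tested on simulated data. The paired fit added the replicate number, whose meaning no label gives. It was used because all 6 correlations of replicate differences between groups were above 0.1, and samples without a number in the title were taken as replicate 1. Alternatives were the filter, the cluster rule, quantile normalization, array weights, an intensity trend, only the arrays compared, and each array left out.

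The 9 measured genes were each described in the comparison of the subsets averaged over the genotypes, and some of them in the others. Passing genes of the pathway lists were named, with the 3 genes most alike in pattern. Interferon-response genes, sex-linked genes and markers of T, CD8 T, regulatory T, B, NK, dendritic and macrophage or monocyte cells were read as lists. The genes and lists were chosen with earlier results of these data known.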

Additional observations from a re-analysis of the deposited data

How the results depend on the processing

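Recomputing covered 20 differences: the averaged subset and genotype differences of each of the 9 genes, and the Socs2 subset difference within each genotype. Of these 20, 5 kept their direction and side of the threshold under every alternative. Of the 322 recomputed values, 286 kept their direction and side of the threshold, 6 newly passed, 9 no longer passed and 21 turned sign. The 21 were all uncalled differences with an array left out. The count of genes called between the subsets, averaged over the genotypes, was 1 in the analysis as reported, 3 with the replicate block, 0 with no filter on dim genes (Socs2 adjusted p = 0.0549) and 0 with array weights (0.0515). It was 0 to 2 with an array left out, the 2 being Il2 and Socs1 without CCR2-/- CD45RBhigh replicate 2. Within CCR2-/- cells the count was 0 as reported, 1 with the replicate block and 0 to 1 with an array left out, and within wild-type cells 0 as reported and 1 with the replicate block. The replicate block changed no other call of the 9 genes. The cause of these changes was not tested. Leaving out an array also lowers the number of arrays, and dropping the filter raises the number of genes tested.

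With an array left out, the averaged subset differences of uncalled genes spanned 0 in 6 cases: Il2 from -0.076 to 0.63, Il2rb from -0.0019 to 0.14, Stat5a from -0.37 to 0.029, Stat5b from -0.11 to 0.0047, Cish from -0.066 to 0.056 and Socs3 from -0.093 to 0.38. The averaged genotype differences did so for Stat5a (-0.26 to 0.14), Socs1 (-0.094 to 0.30), Socs2 (-0.29 to 0.13) and Socs3 (-0.34 to 0.14). Socs2 between the subsets stayed at 1.16 to 1.58, and at 0.87 (adjusted p = 0.0470) with the mean of its clusters. Over all genes the subset call count was 409, 758 with the replicate block and 39 to 524 with an array left out. Within CCR2-/- cells it was 45, 196 with the block, 7 with array weights, 69 with an intensity trend, 9 with the 4 arrays compared and 1 to 84 with an array left out. Within wild-type cells it was 12, 104 with the block, 116 with array weights, 31 with an intensity trend, 36 with the 4 arrays compared and 1 to 54 with an array left out. Testing every cluster by itself was chosen after seeing the data and changed no call. With 2 arrays a group, the median standard error over all genes was 0.15 for a difference between 2 groups, 0.10 for an averaged difference and 0.21 for the interaction, which limits what could be called.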
